A study of Mus musculus with 6 samples.

Results

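The genes described here build the basal layer of the epidermis and fasten it to the dermis: basal keratins, integrins and anchoring proteins, laminins, and other basement membrane genes. They were chosen by function as a list of 31 genes, and each was read from its brightest probe set, the one with the highest mean log2 signal over the 6 arrays. Of the 31 genes, 30 had a probe set that names them alone, and 29 were bright enough to be tested, among 11387 genes tested in all. Itga2 was dim and was measured but not tested with the rest, and Fermt1 was not analysed here.

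Back skin was taken at e18.5, late in gestation, from 3 Get1 -/- and 3 Get1 +/+ mice, and total RNA of each mouse was hybridised to 1 oligonucleotide array. Get1, an older name for Grhl3, encodes a grainyhead-like transcription factor of surface epithelia, and the comparison is between Get1 -/- and Get1 +/+ skin. The strain, sex and litter of the mice, and the way the Get1 allele was made, are not given in the sources used here. Whole skin holds epidermis, follicles, dermis, vessels, muscle and fat, so fewer cells of a type and less RNA per cell cannot be told apart.

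Basal keratinocytes carry a network of keratin 5 paired with keratin 14 or 15. Hemidesmosomes tie this network to the basement membrane: plectin and dystonin hold the keratins on the inside, and integrin alpha6 beta4 and collagen XVII span the membrane. Outside the cell, laminin binds the integrin, collagen VII anchors the sheet to the dermis, and collagen IV, nidogens and perlecan form its network. Inherited loss of several of these proteins causes blistering of the skin.

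Signals are in arbitrary units and were used as deposited, without further scaling. A change is the mean log2 signal in Get1 -/- minus that in Get1 +/+ skin, with the standard error (SE), 95% interval and p of limma, and adjusted p is Benjamini-Hochberg over all 11387 genes. The labels call the samples separate mice of a genotype, and the number of arrays limits the precision. Grhl3 itself read 246, 413 and 380 in the 3 Get1 -/- mice and 478, 934 and 670 in the 3 Get1 +/+ mice, a change of -0.98 ± 0.28 (SE, adjusted p = 0.497). Its genotypes did not overlap, and whether its probe set lies in the altered part of the gene is not stated. Correlations between arrays ran from 0.94 to 0.962 within a genotype and from 0.916 to 0.971 between genotypes. The 3' to 5' signal ratio of the beta-actin control, a measure of RNA integrity, was 1.36 to 1.49 in Get1 -/- and 1.35 to 1.37 in Get1 +/+ skin. That of Gapdh was 0.732 to 0.844 in Get1 -/- and 0.692 to 0.81 in Get1 +/+ skin. The middle beta-actin probe set varied within both genotypes. It read 18407, 10118 and 13060 in Get1 -/- mice and 19025, 19858 and 10906 in Get1 +/+ mice.

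None of the 29 tested genes passed an adjusted p of 0.05 in limma, higher or lower in Get1 -/- skin, where 3 genes (0.0263%) were called higher and 2 (0.0176%) lower among all genes tested. Their changes ran from -0.41 for Frem2 to 0.21 for Nid1, with a median of -0.06, against a median of 0.01 over all genes. In 20 of the 29 the change was below 0, against 48.7% of all genes, and in 9 it was above 0. Only Frem2 had an unadjusted p under 0.05, 1 of 29 genes, and its change was below 0. Over all genes that share was 8.18%, with 4.29% lower and 3.89% higher. Of the 29 genes, the number at that p was 4 without Get1 +/+ replicate 1, and 0 without Get1 +/+ replicate 3 or without Get1 -/- replicate 3. The matching shares over all genes were not computed for these runs, so 8.18% is not their background. Without Get1 +/+ replicate 1 the calls at an adjusted p under 0.05 over all genes also rose, to 98 higher and 24 lower in limma. The 95% interval lay wholly within a 2-fold change in either direction for all 29 genes, against 86.2% of all genes. These intervals are per gene and not adjusted for their number. Itga2, too dim to be tested, had an interval from 0.52 to 2.01 times the Get1 +/+ level in the fit with no filter. The median SE was 0.16 for the 29 genes and 0.19 over all genes. The part of signal level in the width of the intervals was not tested.

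**Figure D1:**
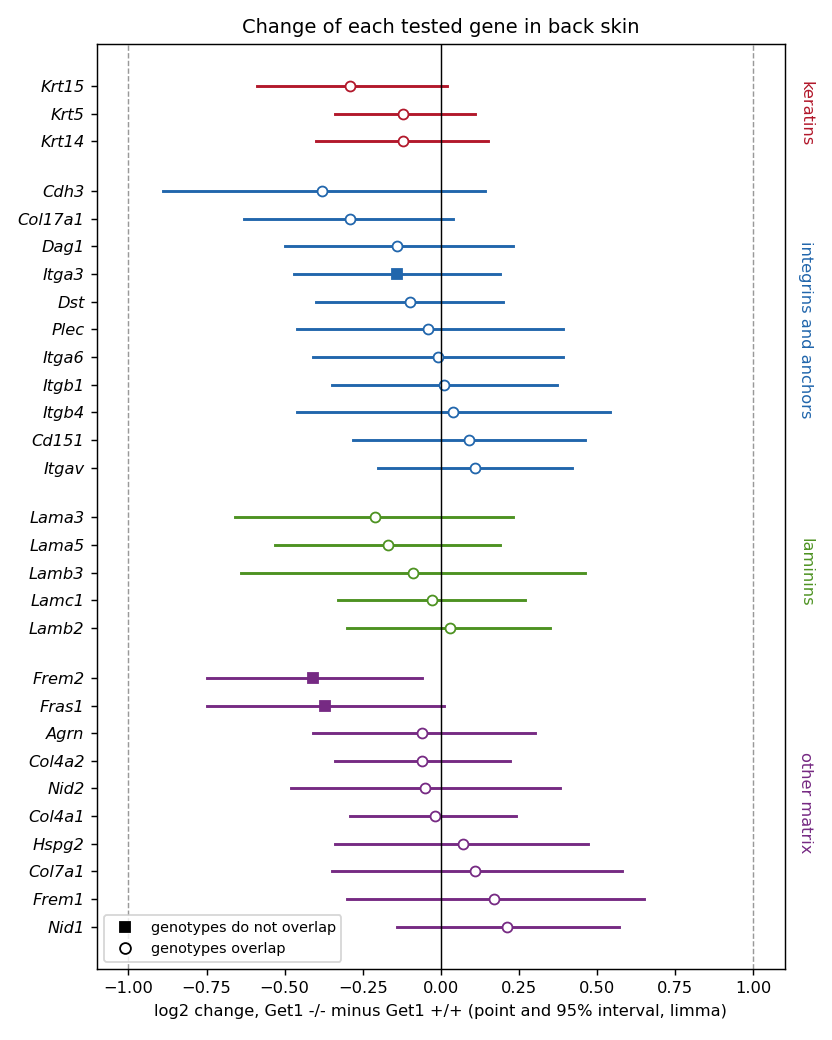
Change in log2 signal (horizontal axis, Get1 -/- minus Get1 +/+) of the 29 tested genes, by class, with 95% intervals from limma; filled squares mark genes whose genotypes did not overlap and dashed lines a 2-fold change. Every interval lies between the dashed lines, and only that of Frem2 (-0.75 to -0.06) leaves out 0.

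The 3 basal keratins had changes below 0, none past the threshold, with a median of -0.12. Krt5, the type II keratin of the basal layer, read 19505, 18878 and 19814 in Get1 -/- mice and 19398, 21090 and 22701 in Get1 +/+ mice. The genotypes overlapped through Get1 +/+ replicate 1, and the change was -0.12 ± 0.10 (adjusted p = 0.803). Its interval ran from 0.788 to 1.08 times the Get1 +/+ level. Krt14, its type I partner, read 18352, 14882 and 16142 in Get1 -/- mice and 16173, 17725 and 19929 in Get1 +/+ mice. These too overlapped, with a change of -0.12 ± 0.12 (adjusted p = 0.833).

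Krt15, a type I keratin of basal cells and follicle stem cells, had the widest difference of the 3. It read 10673, 11341 and 11900 in Get1 -/- mice and 11466, 14777 and 15412 in Get1 +/+ mice. Get1 +/+ replicate 1 lay inside the Get1 -/- range and the other two above it. The change was -0.29 ± 0.13, with an interval from 0.665 to 1.01 times the Get1 +/+ level (adjusted p = 0.613). Leaving out single arrays moved the median of the 3 keratins between -0.206, without Get1 -/- replicate 1, and -0.061, without Get1 +/+ replicate 3.

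Of the suprabasal markers, which mark the layers above, 7 of 7 tested had a change below 0, with a median of -0.45. None passed an adjusted p of 0.05 in limma, and 3 were lower at an unadjusted p under 0.05. Over all genes 48.7% of changes were below 0, and 4.29% were lower at that unadjusted p. The summed signal of the suprabasal markers was 110229 to 148283 in Get1 -/- and 150469 to 160627 in Get1 +/+ skin, without overlap. Of that list Krtdap (-0.45 ± 0.12, adjusted p = 0.469) and Sbsn (-0.49 ± 0.17, adjusted p = 0.567) had the smallest p, and both were lower in all 3 Get1 -/- mice than in any Get1 +/+ mouse. The tested keratins of that list were closer to 0 and overlapped between genotypes. They were Krt1 (-0.12 ± 0.14, adjusted p = 0.857) and Krt10 (-0.10 ± 0.10, adjusted p = 0.844). The part of these layers in the basal keratin values was not tested.

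Among the 11 tested integrins and anchors 7 changes were below 0 and 4 above, with a median of -0.04. The median was -0.107 without Get1 +/+ replicate 1 or without Get1 -/- replicate 3. Averaging each gene's kept probe sets made it 0.001. The subunits of the hemidesmosomal integrin were close between genotypes. Itga6 read 3584, 4807 and 3828 in Get1 -/- mice and 3883, 5017 and 3467 in Get1 +/+ mice, a change of -0.01 ± 0.18 (adjusted p = 0.991). Itgb4, its partner chain, read 614, 466 and 596 in Get1 -/- mice and 428, 507 and 723 in Get1 +/+ mice. The change was 0.04 ± 0.22 (adjusted p = 0.98), and Get1 +/+ mice spanned a wider range than Get1 -/- mice. The intervals reached from 0.753 to 1.31 times the Get1 +/+ level for Itga6 and from 0.726 to 1.45 times for Itgb4.

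Col17a1, the transmembrane collagen of the hemidesmosome, had the smallest p of this class. It read 2515, 2163 and 2194 in Get1 -/- mice and 2445, 2940 and 3060 in Get1 +/+ mice. Only Get1 -/- replicate 1 lay above the lowest Get1 +/+ mouse, and the change was -0.29 ± 0.15 (adjusted p = 0.636). The plakins that bind keratin on the inner side were closer to 0. Dst averaged 4094 ± 405 in Get1 -/- and 4389 ± 296 in Get1 +/+ skin (SD, n = 3 each), and Plec averaged 4298 ± 940 in Get1 -/- and 4365 ± 630 in Get1 +/+ skin. Cd151, the tetraspanin that associates with laminin-binding integrins, averaged 2109 ± 230 in Get1 -/- and 1990 ± 328 in Get1 +/+ skin.

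Itga3, whose protein with integrin beta1 binds laminins outside hemidesmosomes, was the only gene of this class without overlap. It read 631, 605 and 572 in Get1 -/- mice and 654, 667 and 675 in Get1 +/+ mice. The difference was small, -0.14 ± 0.15 (adjusted p = 0.84), or 0.721 to 1.14 times the Get1 +/+ level. The other kept, dimmer probe set of Itga3 overlapped. It read 86.38, 155.3 and 141.1 in Get1 -/- mice and 96.17, 208.6 and 191.5 in Get1 +/+ mice, a change of -0.34. Over the 29 genes 3 did not overlap and were lower in Get1 -/- skin (10.3%), namely Itga3, Fras1 and Frem2, against 6.78% of all genes. None was higher without overlap, against 5.2% of all genes.

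By their brightest probe sets the remaining integrins lay near or above 0. Itgb1, the common beta chain, averaged 3258 ± 486 in Get1 -/- and 3233 ± 356 in Get1 +/+ skin (SD, n = 3 each), with a change of 0.01 ± 0.16. Itgav, the chain of vitronectin- and fibronectin-binding integrins, had a change of 0.11 ± 0.14. Its other kept, dimmer probe set gave -0.36, and the mean of both -0.126. Itga2, a collagen receptor chain, read 131, 121 and 49.0 in Get1 -/- mice and 90.4, 90.9 and 88.5 in Get1 +/+ mice. Those values lie under the signal of 137 set as the lower limit for testing. In the fit without that limit its change was 0.03 ± 0.43.

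Cdh3, which encodes the P-cadherin of basal and follicle cells, read 786, 657 and 748 in Get1 -/- mice and 830, 746 and 1365 in Get1 +/+ mice. Get1 +/+ replicate 3 stood above the other 5 arrays. The change was -0.38 ± 0.23 (adjusted p = 0.701) with all arrays and -0.111 without that one. Dag1, the dystroglycan that links laminin to the cytoskeleton, had a change of -0.14 ± 0.16. Follicle markers, given here because Krt15 and Cdh3 are also expressed in follicles, had changes below 0 in 6 of 8, with a median of -0.27 and 0 called. The 1 at an unadjusted p under 0.05 in limma was Krt17 (-0.47, adjusted p = 0.597), lower without overlap. Over all genes 48.7% of changes were below 0, 4.29% were lower at that unadjusted p and 6.78% were lower without overlap. The summed signal of the follicle markers was 14120 to 16411 in Get1 -/- and 15970 to 20038 in Get1 +/+ skin, highest in Get1 +/+ replicate 3. Their part in the Krt15 and Cdh3 values was not tested.

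Of the 5 laminin chains 4 had changes below 0 and 1 above, with a median of -0.09. The median was -0.204 without Get1 +/+ replicate 1 and -0.02 without Get1 +/+ replicate 3. Lama3 and Lamb3, chains of the laminin under hemidesmosomes, overlapped between genotypes. Lama3 read 1063, 1738 and 1415 in Get1 -/- mice and 1536, 1823 and 1457 in Get1 +/+ mice, a change of -0.21 ± 0.20 (adjusted p = 0.817). It was -0.027 without Get1 -/- replicate 1 and -0.382 without Get1 -/- replicate 2. Lamb3 read 1785, 1443 and 1104 in Get1 -/- mice and 1088, 1699 and 1852 in Get1 +/+ mice, a change of -0.09 ± 0.24 (adjusted p = 0.946). The lowest array was Get1 -/- replicate 1 for Lama3 and Get1 +/+ replicate 1 for Lamb3, so their order over the mice differed.

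The chains that also occur in other laminins were less variable. Lamb2 averaged 939 ± 53.4 in Get1 -/- and 922 ± 49.7 in Get1 +/+ skin (SD, n = 3 each), a change of 0.03 ± 0.14. Lamc1, the gamma chain of most laminins, averaged 2863 ± 235 in Get1 -/- and 2909 ± 149 in Get1 +/+ skin, a change of -0.03 ± 0.13. Its other kept, dimmer probe set gave -0.40, and the mean of both -0.211. Lama5, an alpha chain of the mature basement membrane, averaged 1131 ± 107 in Get1 -/- and 1274 ± 167 in Get1 +/+ skin, a change of -0.17 ± 0.16. The other kept probe set of Lama5 gave -0.01, and the mean of both -0.091. For the brightest probe sets of these chains adjusted p ran from 0.825 for Lama5 to 0.98 for Lamb2.

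**Figure D2:**
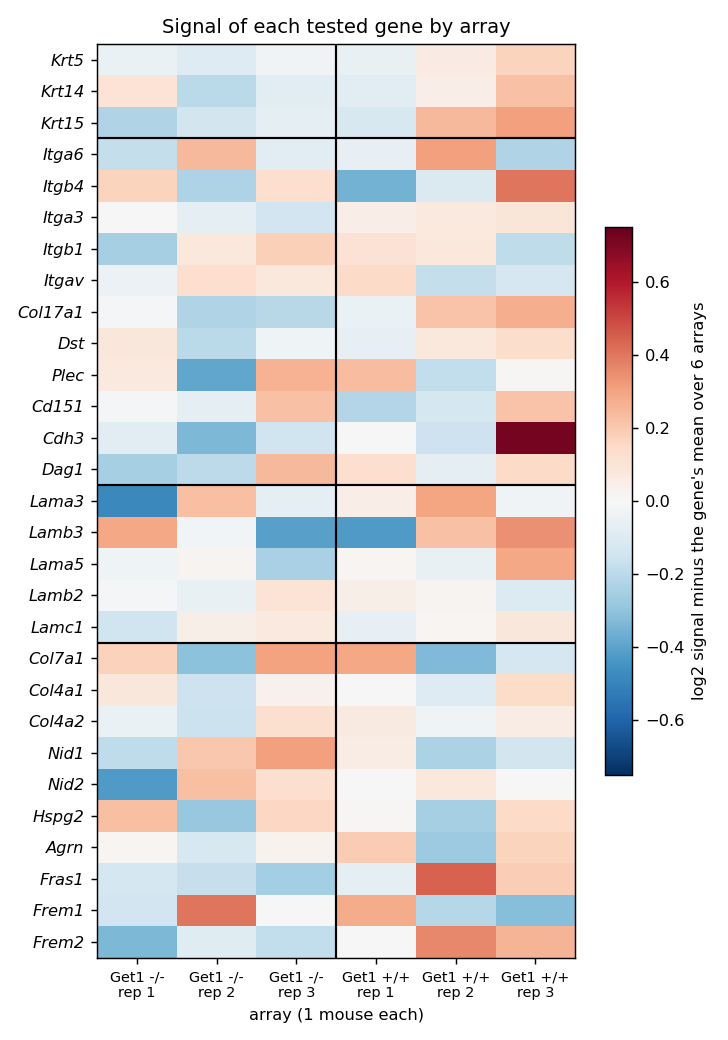
Log2 signal of each tested gene minus its own mean over the 6 arrays (colour), with genes in rows by class (from the top: keratins, integrins and anchors, laminins, other matrix) and arrays in columns, Get1 -/- at the left. Get1 +/+ replicate 3 was the highest array for 12 of 29 genes and Get1 -/- replicate 2 the lowest for 9.

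In the class of other matrix genes 6 changes were below 0 and 4 above, with a median of -0.04. That median lay above 0 without Get1 +/+ replicate 3 (0.025) and without Get1 -/- replicate 2 (0.011). The network collagens were level. Col4a1 read 14752, 12525 and 14259 in Get1 -/- mice and 13900, 13026 and 15313 in Get1 +/+ mice, a change of -0.02 ± 0.12 (adjusted p = 0.975). Col4a2 read 6220, 5746 and 6980 in Get1 -/- mice and 6741, 6283 and 6678 in Get1 +/+ mice, a change of -0.06 ± 0.12 (adjusted p = 0.928). These chains assemble together. In the RefSeq table of build GRCm38.p6 the genes are transcribed in opposite directions from starts 21 bases apart. The annotated transcripts overlap where they begin. Get1 -/- replicate 2 was the lowest array for both. Their intervals, 0.82 to 1.18 and 0.791 to 1.16 times the Get1 +/+ level, were the narrowest of this class.

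Col7a1, which forms the anchoring fibrils, read 4813, 3449 and 5249 in Get1 -/- mice and 5209, 3394 and 3907 in Get1 +/+ mice. The spread within each genotype exceeded the difference between them, 0.11 ± 0.21 (adjusted p = 0.92). Nid1, a nidogen that bridges laminin and collagen IV, had the largest positive change of the brightest probe sets. It read 5746, 7541 and 8093 in Get1 -/- mice and 6807, 5559 and 5959 in Get1 +/+ mice, with overlap and a change of 0.21 ± 0.16 (adjusted p = 0.765). Its other kept probe set gave -0.13, and the mean of both gave 0.041, below the values of Frem1 and Col7a1. Its relative Nid2 had a change of -0.05 ± 0.19, with Get1 -/- replicate 1 at 802 and the other 5 arrays between 1077 and 1262.

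The 2 heparan sulphate proteoglycans were also close between genotypes. Hspg2, which encodes perlecan, averaged 2104 ± 380 in Get1 -/- and 2000 ± 269 in Get1 +/+ skin (SD, n = 3 each), a change of 0.07 ± 0.18. Agrn, which encodes agrin, averaged 3561 ± 199 in Get1 -/- and 3741 ± 641 in Get1 +/+ skin, a change of -0.06 ± 0.16. Hspg2 lies near the altered locus, with 35 protein-coding genes between it and Grhl3 in the RefSeq table. Agrn and Frem1 are on the same chromosome, with 319 and 558 protein-coding genes in between.

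Several of these matrix genes are made by vessel and muscle cells too. Endothelial markers had changes above 0 in 8 of 8 (median 0.20) and pericyte markers in 5 of 5 (median 0.26). The endothelial sum was 7600 to 9168 in Get1 -/- and 6944 to 7533 in Get1 +/+ skin, and the pericyte sum 7965 to 8933 in Get1 -/- and 5364 to 8419 in Get1 +/+ skin. Skeletal muscle markers had changes above 0 in 8 of 8 (median 0.34), with sums of 95494 to 139490 in Get1 -/- and 80980 to 123472 in Get1 +/+ skin. Of these genes 0 passed an adjusted p of 0.05 in limma, with 2 pericyte and 2 muscle markers higher at an unadjusted p under 0.05. Over all genes 48.7% of changes were below 0, and 3.89% were higher at that unadjusted p. The part of these markers in the matrix values was not tested. Kdr (0.39 ± 0.18), Rgs5 (0.57 ± 0.25) and Myh3 (0.79 ± 0.27) had the smallest p of the 3 lists, with adjusted p of 0.615, 0.602 and 0.567. Fibroblast markers had changes above 0 in 4 of 7, with a median of 0.06 and sums of 142931 to 164090 in Get1 -/- and 130872 to 167053 in Get1 +/+ skin.

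Among the largest negative changes were those of genes of the Fraser complex, in which Fras1, Frem1 and Frem2 join beneath the epidermis of the embryo. In mice, loss of any of the 3 proteins blisters embryonic skin. Frem2 read 1422, 1689 and 1579 in Get1 -/- mice and 1797, 2301 and 2140 in Get1 +/+ mice, so every Get1 -/- mouse lay below every Get1 +/+ mouse. The change was -0.41 ± 0.15, or 0.593 to 0.958 times the Get1 +/+ level, at an unadjusted p of 0.0258 in limma and an adjusted p of 0.58. Fras1 read 989, 964 and 910 in Get1 -/- mice and 1034, 1474 and 1230 in Get1 +/+ mice, again without overlap. Its change was -0.37 ± 0.17 (adjusted p = 0.608).

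Frem1, the third partner, read 892, 1300 and 990 in Get1 -/- mice and 1194, 849 and 791 in Get1 +/+ mice. It overlapped, with a change of 0.17 ± 0.21 (adjusted p = 0.871). The other kept probe set of Fras1 did not share the lower values. It read 512, 346 and 330 in Get1 -/- mice and 433, 301 and 456 in Get1 +/+ mice, a change of -0.01, and the average of both was -0.189. Frem2 and Frem1 have 1 probe set each.

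The sequence upstream of Frem2 is shown because it has the smallest p of the set and holds a match to a grainyhead-like motif, AACCNGTT, searched on both strands in the 250 bases before each annotated start. Of 31 genes, 22 had such a promoter in the RefSeq promoter list used here (build GRCm38.p6), 29 promoters in all. The other genes were not found in that list, which does not mean that RefSeq has no start for them. Of the 29 promoters 2 held the motif, those of Frem2 and of 1 of the 2 Cd151 starts. Over all promoters of the list 1.79% held it. The 250 bases before Frem2, at chr3:53657356-53657605 on the minus strand, and before Cd151, at chr7:141467112-141467361 on the plus strand, run 5′ to 3′ as follows, with the motif in capitals.
Frem2: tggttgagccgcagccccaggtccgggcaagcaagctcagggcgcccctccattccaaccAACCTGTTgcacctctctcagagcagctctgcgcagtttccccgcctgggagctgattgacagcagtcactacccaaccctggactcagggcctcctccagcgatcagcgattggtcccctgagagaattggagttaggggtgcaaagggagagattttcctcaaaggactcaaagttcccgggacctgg
Cd151: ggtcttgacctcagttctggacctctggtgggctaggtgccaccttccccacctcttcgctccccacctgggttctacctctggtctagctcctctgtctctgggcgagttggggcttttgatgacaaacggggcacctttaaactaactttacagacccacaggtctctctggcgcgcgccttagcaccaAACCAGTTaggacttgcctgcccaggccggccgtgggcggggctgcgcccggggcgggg
The match begins 190 bases before the start in Frem2 and 59 bases before it in Cd151. The genes with a match had changes of -0.41 (Frem2) and 0.09 (Cd151), on either side of 0. The motif GCCNNNGGC, bound by AP-2 factors, was in 7 of the 29 promoters and 13.7% of all promoters, and TATAAA in 1, that of Col17a1, and 12.4% of all. The 29 promoters had a median GC content of 60.8%, against 52.4% over all promoters. The fixed bases of GCCNNNGGC are all G or C, and the part of GC content in its counts was not tested. In the Cd151 promoter GCCNNNGGC matched at 30 and 13 bases before the start and did not overlap the AACCNGTT match. Such matches describe the letters in this window and are not measured binding sites.

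Averaged over the genes of a class, the genotypes overlapped in each class. For the keratins the mean deviation was -0.058, -0.145 and -0.06 in Get1 -/- mice and -0.087, 0.119 and 0.231 in Get1 +/+ mice, so Get1 +/+ replicate 1 lay with the Get1 -/- mice. For the integrins and anchors it was -0.046, -0.115 and 0.044 in Get1 -/- mice and -0.008, -0.006 and 0.131 in Get1 +/+ mice. The laminins (-0.078, 0.044 and -0.108 in Get1 -/-, and -0.076, 0.099 and 0.118 in Get1 +/+) and other matrix genes (-0.078, -0.046 and 0.063 in Get1 -/-, and 0.082, -0.056 and 0.035 in Get1 +/+) also had Get1 -/- values among the Get1 +/+ values. Get1 -/- replicate 3 was high for other matrix and low for laminins. Within genotypes the median SD of the 29 genes was 0.194 on the log2 scale, against 0.23 over all genes. The highest array stood 1.15 to 2.08 times above the lowest, with a median of 1.42, against a median of 1.54 over all genes.

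**Figure D3:**
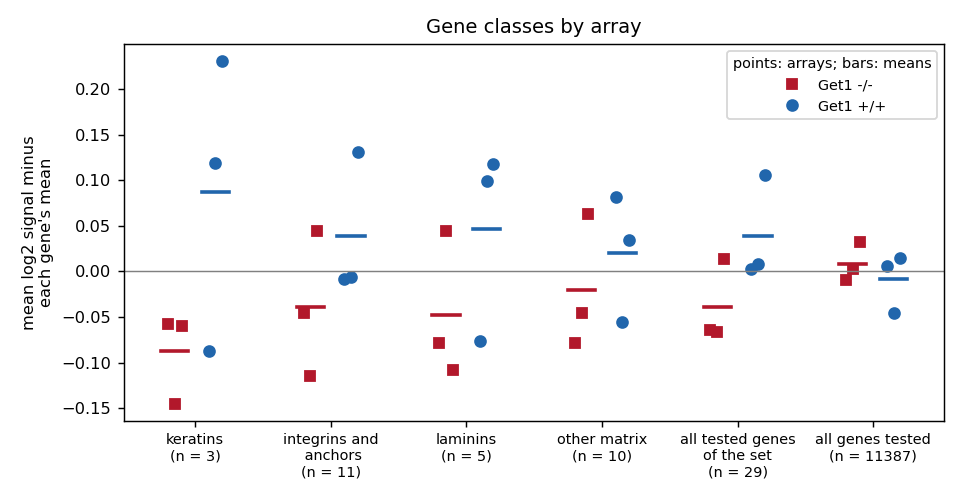
Mean over the tested genes of each class of the log2 signal minus the gene's own mean (vertical axis), 1 point per array, Get1 -/- left of Get1 +/+, with bars at the genotype means. Genotypes overlap in each of the 4 classes, and Get1 +/+ replicate 3 is the highest array for keratins (0.231), integrins and anchors (0.131) and laminins (0.118).

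Genes read by several probe sets gave a second measurement. Of the 29 genes, 15 had more than 1 kept probe set, 7 of them with all changes of 1 sign and 8 with both signs. Krt14 gave between -0.17 and -0.12 over 3 probe sets and Col4a1 -0.07 and -0.02, while Itgav gave -0.36 and 0.11. The widest range was that of Dst, from -0.15 to 0.44 over 4 probe sets. The Dst probe set at 0.44 read 2035, 1579 and 1908 in Get1 -/- mice and 1708, 1056 and 1358 in Get1 +/+ mice, with overlap (unadjusted p = 0.049 in limma). Dst is known to make epithelial, muscle and neural isoforms, and which of them each probe set reads was not determined. Over 52 kept probe sets of these genes 36 changes were below 0 and 16 above. Their p, and that of Dst above, come from a separate limma fit over all 45037 probe sets other than controls, adjusted over these. Of the 52, 0 passed an adjusted p of 0.05 there, with 2 at an unadjusted p under 0.05. Shares over all kept probe sets were not computed. Over all genes tested 48.7% of changes were below 0 and 8.18% had an unadjusted p under 0.05 in limma.

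**Figure D4:**
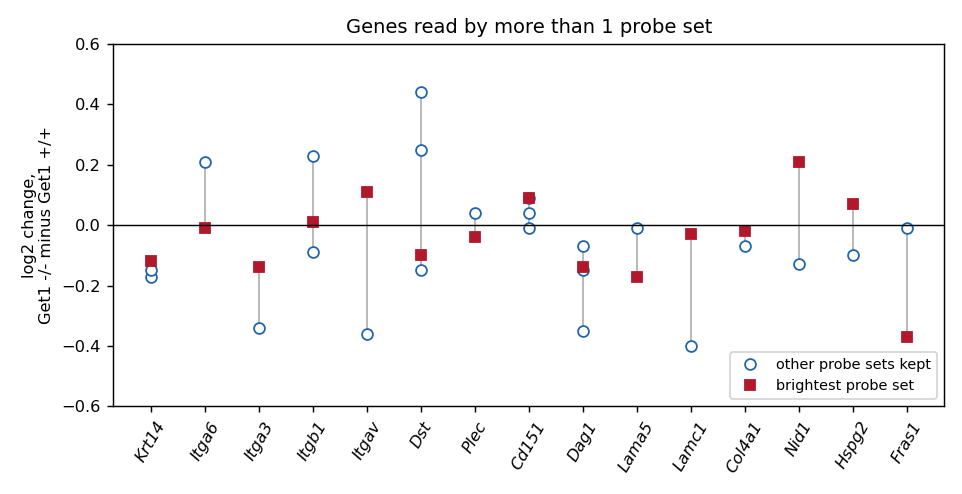
Log2 change (vertical axis, Get1 -/- minus Get1 +/+) of every kept probe set of the 15 genes with more than 1, the brightest as a filled square. Krt14, Itga3, Dag1, Lama5, Lamc1, Col4a1 and Fras1 lie on 1 side of 0, and Dst spans -0.15 to 0.44.

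Other adhesion and basement membrane genes, a separate list of 46, also held no call. Of 41 tested, 22 had changes below 0 and 19 above, with a median of -0.03. In limma 0 passed an adjusted p of 0.05, with 2 lower and 0 higher at an unadjusted p under 0.05. Over all genes tested 48.7% of changes were below 0, and 4.29% were lower and 3.89% higher at that unadjusted p. Cd9, an integrin-associated tetraspanin, read 4329, 5932 and 4925 in Get1 -/- mice and 5847, 8119 and 8494 in Get1 +/+ mice, a change of -0.56 ± 0.18 (adjusted p = 0.567). Col4a6, a chain of the epithelial collagen IV network, read 238, 331 and 266 in Get1 -/- mice and 390, 364 and 408 in Get1 +/+ mice, without overlap, a change of -0.49 ± 0.19 (adjusted p = 0.588). Trp63, the transcription factor p63 that maintains basal keratinocytes, had a change of -0.27 ± 0.19 (adjusted p = 0.749), and its genotypes overlapped. Serpinh1, a collagen chaperone, followed with -0.14 ± 0.13 (adjusted p = 0.83).

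On the other side of 0, Itgb8 (0.68 ± 0.31, adjusted p = 0.608), Lama4 (0.25 ± 0.14, adjusted p = 0.675), Sdc4 (0.66 ± 0.42, adjusted p = 0.71) and Lims1 (0.29 ± 0.19, adjusted p = 0.721) had the smallest p. Lama4, a laminin chain of vessel and muscle basement membranes, read 2772, 2535 and 3291 in Get1 -/- mice and 2387, 2397 and 2404 in Get1 +/+ mice, without overlap. Sdc4, a syndecan, ranged widely in both genotypes, from 521 to 1242 in Get1 -/- and from 268 to 720 in Get1 +/+ mice.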

How the data were processed

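The deposited intensities are linear MAS5 signals per probe set, made by the authors with the tool named in the submitters' processing notes, with no version; other steps and the genome build are not given in the sources used here. The 2% trimmed mean of the deposited intensities was 500 on Get1 -/- replicate 1, the only array on which it was computed. No further scaling was applied. Controls (64 of 45101 probe sets) were left out and log2 taken. Probe sets at or above the median mean log2 (a signal of 137) were kept, 22519 of 45037, and each gene was read from its brightest kept probe set naming it alone in the platform annotation, leaving 11387 genes. The test was limma's (version 3.58.1, under R 4.3.3) two-sided moderated one with a mean-variance trend, adjusted over all genes, after the fit was tested on simulated data. The rule for named genes takes every gene of the list, Grhl3, up to 4 genes per direction of the wider adhesion list by smallest p and up to 2 per marker list. Krt1 and Krt10 were named outside this rule. Lists, members and tests were chosen with earlier results of these data known, and the 2-fold interval count was chosen after the values were seen. Adipocyte markers had changes above 0 in 4 of 5 tested (median 0.13) and Schwann cell markers in 1 of 2, with 0 called. Over all genes 48.7% of changes were below 0. Alternatives were other scalings, filters, an offset, no trend, a replicate block, single arrays left out and the mean of probe sets.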

Additional observations from a re-analysis of the deposited data

How the results depend on the processing

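In all 14 alternatives 0 of the tested genes of the list passed the threshold, and the smallest adjusted p of any of them was 0.125. Changes below 0 numbered 18 to 22 with single arrays left out and 19 or 20 otherwise. Intervals within 2-fold numbered 28 or 29, and with no filter 29 of 30. The direction held in every alternative for 14 of 29 genes, 11 lower and 3 higher, among them the 3 keratins, Col17a1, Itga3, Fras1 and Frem2. Some of these came near 0 with 1 array left out: Cd151 ran from 0.003 to 0.221, Frem1 from 0.016 to 0.353, Lama3 from -0.382 to -0.027, Dag1 from -0.29 to -0.045 and Krt14 from -0.206 to -0.046. The other 15 turned at least once; the cause was not tested. With the mean of probe sets the change was 0.10 for Itga6, -0.126 for Itgav, 0.108 for Dst, 0.001 for Plec and -0.017 for Hspg2, and with quantile normalization it was 0.016 for Col4a1. With single arrays left out it ran from -0.208 to 0.025 for Agrn, -0.079 to 0.046 for Col4a1, -0.135 to 0.005 for Col4a2, -0.025 to 0.293 for Col7a1, -0.043 to 0.223 for Hspg2, -0.137 to 0.139 for Itga6, -0.088 to 0.132 for Itgb1, -0.127 to 0.25 for Itgb4, -0.02 to 0.059 for Lamb2, -0.324 to 0.091 for Lamb3, -0.068 to 0.044 for Lamc1, -0.178 to 0.149 for Nid2 and -0.176 to 0.147 for Plec. The median ran from -0.204 to -0.02 for the laminins, -0.107 to -0.032 for integrins and anchors, and -0.066 to 0.025 for other matrix. Genes of the list at an unadjusted p under 0.05 numbered 0 with median centring, 2 with no filter, 2 with the replicate block and 0 to 4 with single arrays left out. The shares of all genes at that p were not computed for these alternatives. Over all genes tested the calls higher and lower were 6 and 4 with median centring, 12 and 32 with the replicate block, and 3 to 98 and 0 to 24 with single arrays left out; 1 gene was called lower with no filter, with quantile normalization and with the stricter filter. Deviations of same-numbered mice had correlations of -0.0195, 0.361 and -0.0251 over the genes tested, and 2 of 6 arrays correlated best with their own number, so the numbers were not taken as pairs; over kept probe sets the values were 0.133, 0.26 and 0.14, all over the limit of 0.1, and 6 of 6 arrays matched best, so this depends on the table. Signal over background could not be read from the table, which holds no detection calls.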
